A study of Rattus norvegicus with 12 samples.

Results

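The comparison of primary rat cardiomyocyte cultures exposed to SIN-1 for 70 min with untreated control cultures was made on 6 arrays, 3 labelled control and 3 labelled 70 min, of the 12 arrays in the series. The members were chosen by these labels alone, and all 18166 genes with a single symbol in the platform's probe table were compared. The other arrays, 3 at 4 h and 3 at 8 h of SIN-1, shared the estimate of the spread and were used to place the changes in time. All groups are labelled wild type and were grown in a serum-rich medium with horse serum, and treatment and its length were the stated differences between them. The labels do not give the dose of SIN-1, do not say whether control cells received a vehicle or how long they were cultured, and these may also differ between the groups. The arrays are called biological replicates, with no more said of whether cultures were separate, and p-values then measure the spread between these samples. Values are log2 expression after RMA, in which a difference of 1 is a 2-fold difference.

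SIN-1 (3-morpholinosydnonimine) breaks down in solution to nitric oxide and superoxide, which combine to peroxynitrite, an oxidant that nitrates and oxidises proteins, lipids and nucleic acids. The first hour of such a stress is the time of immediate early transcription, when factors already present in the cell switch on short-lived transcripts, while transcripts with fast decay fall as soon as their synthesis stops. A fall in an array signal can come from less synthesis or faster decay, and these cannot be told apart here. Nor can fewer cells of a type be told apart from less RNA per cell in bulk RNA.

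Markers of the labelled cell type were checked first. Of 11 measured cardiomyocyte markers only 3, Tnnt2, Pln and Atp2a2, stood above the upper quartile of the unnamed probes (5.67) in control, and the median of those probes, 4.33, served as a guide to background. Myh6 and Myh7, the cardiac myosin heavy chains, were at 3.99 and 3.64 in control, and Ryr2, the cardiac ryanodine receptor, at 4.21, all below that median. Ttn was at 4.46, Mybpc3 at 4.42 and Myl3 at 4.48, just above it, Myl7 at 5.19, Tnni3 at 5.45 and Tnnt2 at 5.99, so that 8 of the 11 stood above the median. Among fibroblast markers 9 of 10 stood above the upper quartile, with Vim at 13.12, Col1a1 at 12.75, Col3a1 at 11.95 and Postn at 11.68, and Tagln, a smooth muscle and myofibroblast marker, was at 12.40. Levels of different probes share no common scale, so these values are each read against the unnamed probes and not against one another. Endothelial markers stood above the upper quartile in 1 of 6 (Tek) and macrophage markers in 0 of 8. The cardiac myosin heavy chains and Ryr2 were thus below the background guide in cultures labelled cardiomyocytes, with Tnnt2 above its upper quartile, and the results are described for the labelled cultures.

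**Figure D1:**
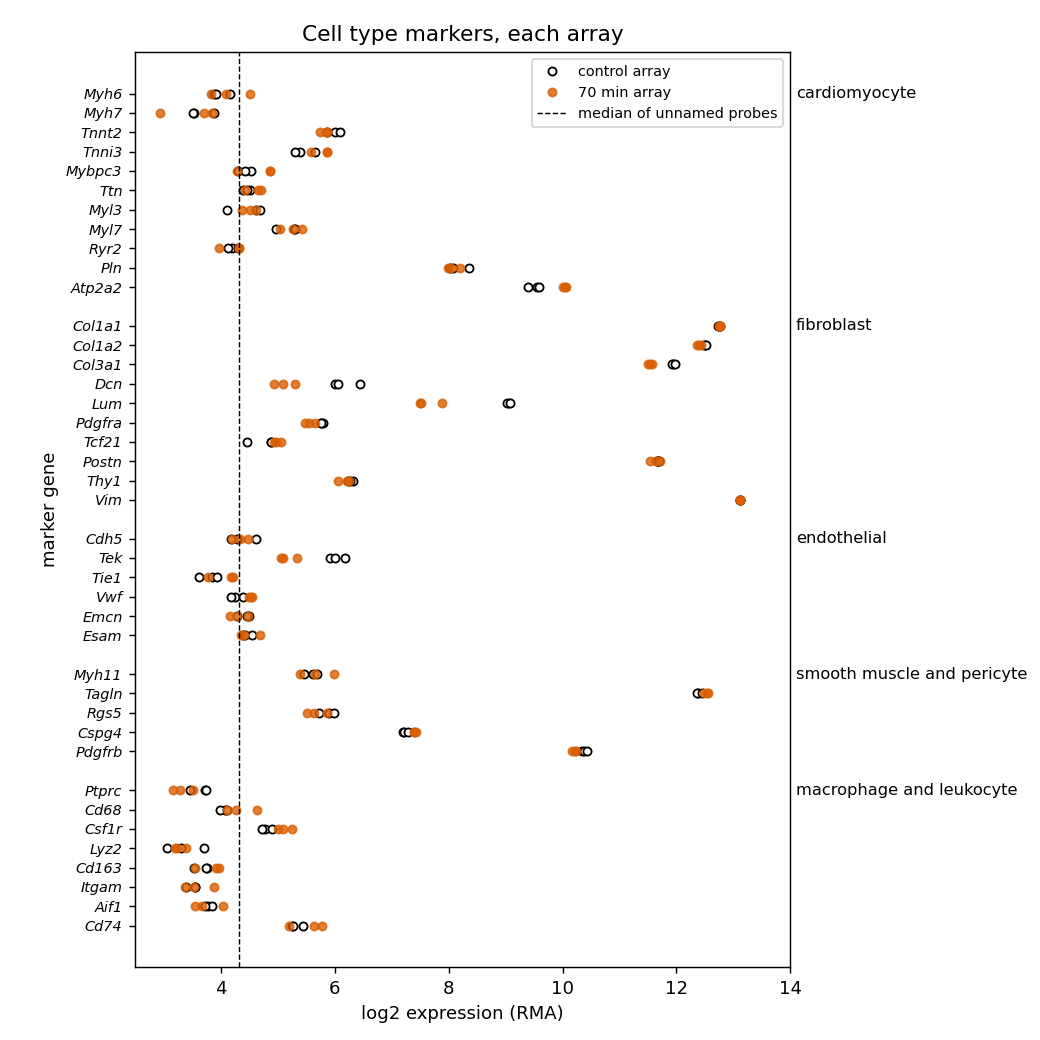
Log2 expression of cell type markers (x axis) for each marker gene (y axis) in the 3 control arrays (open circles) and the 3 arrays at 70 min (filled circles); the dashed line is the median of the unnamed probes, 4.33. Myh6, Myh7 and Ryr2 lie at or left of the line apart from 1 array of Myh6, whereas Col1a1, Postn, Vim and Tagln lie above 11.

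Between control and 70 min the summed signal of the 10 fibroblast markers ran from 14.84 to 14.86 in control and from 14.73 to 14.78 at 70 min on the log2 scale, without overlap, and 3 of them were called lower (Lum, Dcn and Col3a1). The summed signal of the 11 cardiomyocyte markers ran from 10.24 to 10.39 and from 10.63 to 10.66. Only 1 was called higher, Atp2a2, the calcium pump of the sarcoplasmic reticulum (0.52 ± 0.06, SE). Sums were taken on unlogged values, so bright markers weigh most, and Atp2a2 was the brightest of the 11 (9.52 in control, 10.04 at 70 min). The median change of the 11 was 0.06. Smooth muscle markers ran from 12.74 to 12.82 and from 12.81 to 12.87, with Tagln called higher (0.13). Endothelial markers ran from 7.31 to 7.40 and from 7.01 to 7.25, with Tek called lower (-0.88) and a median change of 0.003. The 8 macrophage markers, of which none was called, ran from 7.15 to 7.25 and from 7.14 to 7.49. The part of cell makeup in the results was not tested.

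The arrays of the 70 min group did not sit together. On the first principal component of all 12 arrays, with 33.3% of the variance, 70 min replicates 2 and 3 stood at 29.94 and 29.56, replicate 1 at 11.88 and the controls between -14.16 and -8.35. Replicates 2 and 3 also had the highest medians over all probes, 5.11 and 5.12. Correlations between arrays across genes were 0.9938 to 0.9945 within control and 0.9906 to 0.9930 within the 70 min group.

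By limma, 2647 genes, 14.6% of those tested, differed at an adjusted p under 0.05, with 1228 higher (6.76%) and 1419 lower (7.81%). Without the 3 arrays of highest median, which leaves 1 array at 70 min, 600 were higher and 446 lower. The order of rises and falls also turned with the array median as a covariate (1275 and 1018) and without control replicate 3 (979 and 972), and after a further quantile normalization they were equal (1464 each). Without control replicate 1 the count was 1751. Changes of at least 2-fold were found for 114 of the called genes, 32 higher and 82 lower. The median size of a called change was 0.44 for rises and 0.48 for falls on the log2 scale, and the smallest was 0.13. In 2610 of the called genes the 3 arrays at 70 min all lay on one side of the 3 controls. Over all genes 16.8% had all 70 min arrays above the controls and 15% had them all below.

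Calls rose with signal. Split into 4 equal classes by mean level, in the dimmest class 1.23% were higher and 0.947% lower, and in the brightest 15.8% were higher and 15.1% lower. In the next to brightest, with mean levels from 5.75 to 7.35, falls outnumbered rises, at 12.6% against 6.89%. The median standard error dropped from 0.15 in the dimmest to 0.08 in the brightest class. Genes at or above the median level were called in 25.2%, beside 14.6% of all genes. The gene lists took members at any level, so the share called in each list below is to be read beside both 14.6% and 25.2%.

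**Figure D2:**
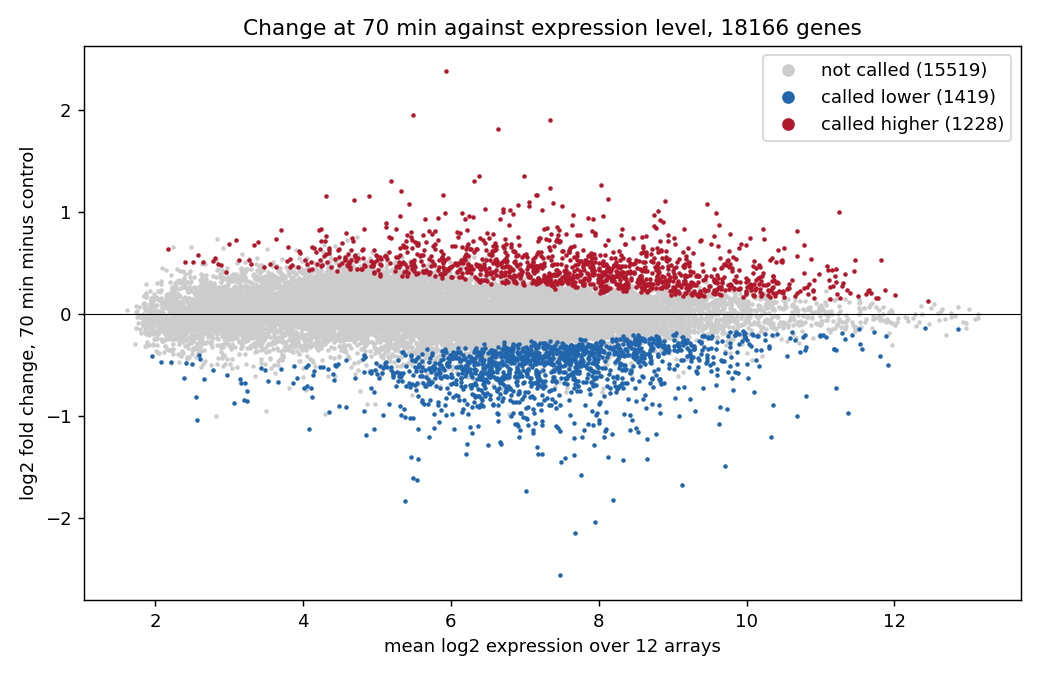
Log2 fold change at 70 min against control (y axis) and mean log2 expression over the 12 arrays (x axis) for 18166 genes, with the 1228 genes called higher in red, the 1419 called lower in blue and the rest in grey. Called genes lie mostly at mean levels above 5.75.

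Nr4a1, Nr4a3, Nr4a2 and Olr1 had the largest rises. Nr4a1, an orphan nuclear receptor of the immediate early class, read 5.21, 5.35 and 5.64 in the control arrays and 7.76, 7.67 and 7.90 at 70 min. Its relatives Nr4a2 (6.73, 6.79 and 6.91 against 8.73, 8.56 and 8.85) and Nr4a3 (4.81, 5.05 and 4.96 against 6.80, 6.75 and 7.11) behaved alike, with each treated array above each control array. Olr1, which encodes a scavenger receptor for oxidised low-density lipoprotein, read 6.56, 6.40 and 6.67 in control and 8.45, 8.24 and 8.38 at 70 min, a 3.52-fold rise (limma adjusted p = 1.42e-08). Sik1, a salt-inducible kinase that restrains CREB coactivators, read 6.20, 5.96 and 5.67 against 7.25, 7.39 and 7.09. Among the rest of the 15 leading risers were Dtl, which targets replication factors for degradation (1.16 ± 0.10, SE), Slc16a14, a member of the monocarboxylate transporter family (1.16 ± 0.12), and Itga3, an integrin chain that binds laminin (1.13 ± 0.10). The groups did not overlap for any of the 15, which the naming rule required.

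Pi15, Sema3a and Edn1 had the largest falls. Pi15, a secreted peptidase inhibitor, read 8.24, 8.29 and 8.39 in control and 5.93, 5.53 and 5.80 at 70 min. Edn1, the precursor of the vasoconstrictor endothelin-1, read 8.83, 8.85 and 8.76 against 6.89, 6.56 and 6.87. In Sesn3, a sestrin that restrains mTORC1, the fall was even across arrays, from 10.06, 10.11 and 10.13 to 8.62, 8.68 and 8.54 (limma adjusted p = 5.14e-10). Nox4, an NADPH oxidase that releases hydrogen peroxide, fell from 8.93, 8.80 and 8.86 to 7.63, 7.36 and 7.33. Lum, a collagen-binding proteoglycan, fell from 9.05, 9.03 and 9.08 to 7.89, 7.52 and 7.50, and Gzmc, a granzyme gene, from 8.05, 7.82 and 7.88 to 6.93, 6.43 and 6.04. Epha7, an ephrin receptor, Slc2a12, a sugar transporter, and Cfap100, a cilium protein gene, fell by 1.82, 1.73 and 1.42. In 12 of the 15 leading fallers replicate 1 was the highest treated array, and each call held in every fit that left out 1 array or the 3 arrays of highest median.

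**Figure D3:**
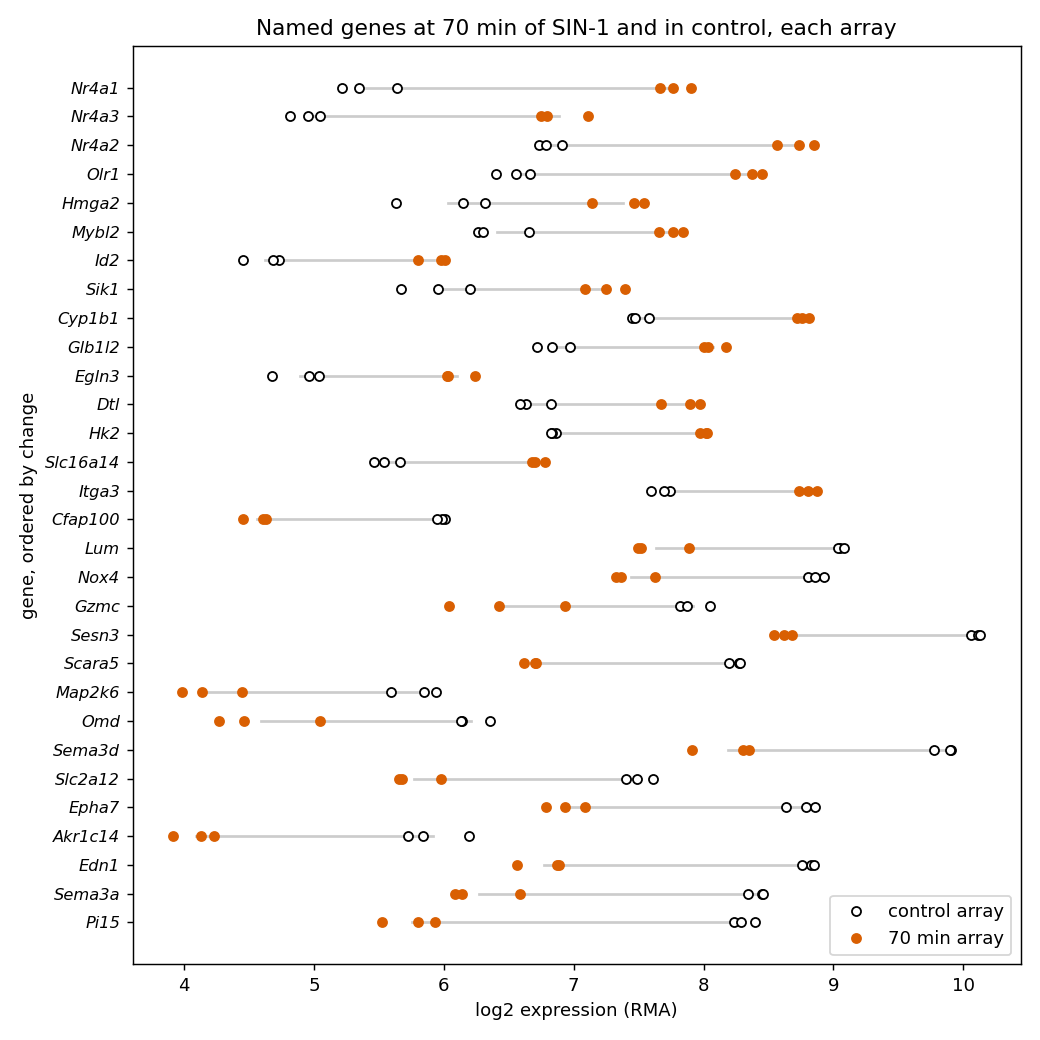
Log2 expression (x axis) of the 15 higher and 15 lower genes named by rule (y axis, ordered by change) in the 3 control arrays (open circles) and the 3 arrays at 70 min (filled circles); grey lines join the group means. In every gene the open and filled circles are apart, by construction of the rule.

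Promoter sequences are shown for the 3 risers and 3 fallers of largest change that have an entry in the RefSeq promoter table (build GRCr8), and for Sik1 and Egr1, which were picked by name, because immediate early genes are known to carry short elements bound by CREB and SRF close to their start. Each window runs from 250 bases before to 50 bases after the gene's start and is written 5′ to 3′ on the gene's strand. Capitals mark TGACG or its reverse complement CGTCA, the core of the cyclic AMP response element, and the CArG box, the site of serum response factor. The first lines are genes that rose, and the last 4 are genes that fell.
Nr4a1, chr7:134259888-134260187, plus strand: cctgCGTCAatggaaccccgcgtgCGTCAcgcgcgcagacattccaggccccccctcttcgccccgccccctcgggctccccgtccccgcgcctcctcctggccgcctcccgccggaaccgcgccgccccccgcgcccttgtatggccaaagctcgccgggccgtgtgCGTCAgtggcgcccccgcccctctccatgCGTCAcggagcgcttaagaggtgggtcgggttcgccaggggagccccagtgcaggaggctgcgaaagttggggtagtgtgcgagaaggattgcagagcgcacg
Nr4a2, chr3:62104838-62105137, minus strand: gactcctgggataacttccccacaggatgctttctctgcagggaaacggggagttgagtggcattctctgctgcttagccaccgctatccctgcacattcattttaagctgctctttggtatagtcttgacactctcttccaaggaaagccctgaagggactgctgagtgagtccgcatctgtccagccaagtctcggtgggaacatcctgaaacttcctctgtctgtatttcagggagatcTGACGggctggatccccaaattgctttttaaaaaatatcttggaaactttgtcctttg
Olr1, chr4:164634498-164634797, minus strand: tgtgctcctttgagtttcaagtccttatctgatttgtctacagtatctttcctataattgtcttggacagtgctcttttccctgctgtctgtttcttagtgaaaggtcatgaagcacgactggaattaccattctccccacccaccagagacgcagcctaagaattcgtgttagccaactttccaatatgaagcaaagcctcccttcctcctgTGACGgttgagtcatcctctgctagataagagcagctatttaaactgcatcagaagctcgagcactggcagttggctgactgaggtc
Sik1, chr20:9958597-9958896, minus strand: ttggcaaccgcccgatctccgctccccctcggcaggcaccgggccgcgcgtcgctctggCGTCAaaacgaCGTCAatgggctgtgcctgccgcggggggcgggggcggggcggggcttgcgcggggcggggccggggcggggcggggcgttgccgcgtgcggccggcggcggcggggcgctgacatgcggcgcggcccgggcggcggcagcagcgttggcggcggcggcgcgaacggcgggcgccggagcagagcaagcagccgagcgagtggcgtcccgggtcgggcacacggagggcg
Edn1, chr17:22666638-22666937, minus strand: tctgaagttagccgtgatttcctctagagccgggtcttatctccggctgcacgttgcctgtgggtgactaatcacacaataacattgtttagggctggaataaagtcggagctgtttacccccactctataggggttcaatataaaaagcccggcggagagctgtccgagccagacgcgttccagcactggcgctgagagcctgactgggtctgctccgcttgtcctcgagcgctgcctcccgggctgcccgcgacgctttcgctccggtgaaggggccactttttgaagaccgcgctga
Akr1c14, chr17:71083135-71083434, minus strand: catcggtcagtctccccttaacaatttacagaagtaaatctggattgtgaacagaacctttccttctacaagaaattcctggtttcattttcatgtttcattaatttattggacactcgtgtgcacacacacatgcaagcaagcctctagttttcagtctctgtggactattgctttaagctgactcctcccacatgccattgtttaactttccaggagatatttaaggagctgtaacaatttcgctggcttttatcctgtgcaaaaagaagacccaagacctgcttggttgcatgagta
Epha7, chr5:47771643-47771942, plus strand: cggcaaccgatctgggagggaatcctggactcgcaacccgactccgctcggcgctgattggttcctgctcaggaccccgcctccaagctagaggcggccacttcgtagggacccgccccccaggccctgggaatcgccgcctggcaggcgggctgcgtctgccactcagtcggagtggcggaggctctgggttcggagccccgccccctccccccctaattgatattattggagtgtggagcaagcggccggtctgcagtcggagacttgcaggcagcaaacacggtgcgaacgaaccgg
Egr1, chr18:26736828-26737127, plus strand: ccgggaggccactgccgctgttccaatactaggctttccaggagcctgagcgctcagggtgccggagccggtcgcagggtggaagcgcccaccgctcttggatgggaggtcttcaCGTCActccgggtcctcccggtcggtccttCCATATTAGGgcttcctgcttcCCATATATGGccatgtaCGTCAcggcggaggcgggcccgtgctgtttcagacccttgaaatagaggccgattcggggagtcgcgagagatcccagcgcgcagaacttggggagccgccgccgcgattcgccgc

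In these windows the core TGACG, read on either strand, was found at 4 places in Nr4a1, at 2 in Sik1 and at 1 each in Nr4a2 and Olr1, and at none in Edn1, Akr1c14 or Epha7. Windows of 8 picked genes give no contrast between risers and fallers. Egr1, an immediate early zinc finger factor that read 8.39, 8.36 and 8.36 in control and 6.91, 6.96 and 7.11 at 70 min, held 2 CArG boxes and 2 TGACG cores, and no CArG box was found in the other windows. Over the 13757 tested genes with a promoter entry, 25.6% held TGACG, 32.2% of the 967 called higher and 29.2% of the 1081 called lower. The hypoxia response core ACGTG, which can share bases with CGTCA, stood in 22.0% of all, 30.5% of the higher and 22.9% of the lower genes. A TATAAA run was in 12.1% of all windows, 7.13% of the higher and 7.96% of the lower. The CArG box was in 1.31% of all, 1.34% of the higher and 0.925% of the lower. The remaining motifs were the antioxidant response core TGACNNNGC (13.5%, 15.6% and 14.7%), which can overlap the first motif, the nuclear receptor element AGGTCA (13.3%, 9.62% and 11.2%), GGAATG of TEAD factors (12.3%, 11.6% and 12%) and TGANTCA of AP-1 (6.46%, 5.38% and 4.63%), in the same order. These shares are a description, without a test.

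Among the tenth of genes with the highest signal, the risers named by size included genes of the actin cytoskeleton and of adhesion. Vcl, the adhesion protein vinculin, read 10.84, 10.83 and 10.88 in control and 11.84, 11.79 and 11.91 at 70 min, a 1.99-fold rise with adjusted p = 5.14e-10. Rai14, an actin-bundle protein, rose from 9.18, 9.21 and 9.25 to 10.35, 10.21 and 10.31. Myo10, a myosin of filopodia, rose by 0.97, Hip1, which links clathrin to actin, by 1.01, Akap12, a scaffold for protein kinase A, by 0.92 and the metalloprotease gene Adam12 by 0.99. Rgs2, which shortens signalling of Gq-coupled receptors, rose from 9.35, 9.36 and 9.45 to 10.29, 10.18 and 10.30. Hmox1, the heme-degrading enzyme induced by oxidants, rose from 8.43, 8.27 and 8.30 to 9.56, 9.44 and 9.31, and Olfml2b and the histone gene H2ac4, whose probes may take signal from near-identical copies, rose by 0.86 and 0.90. In each of these genes the lowest treated array lay above the highest control array.

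Of the 249 bright genes that fell and met the rule, the 10 named by size were Sema3d, Sesn3, Lum and 7 more. Npr3, the clearance receptor of natriuretic peptides, read 9.24, 9.17 and 9.25 in control and 8.13, 7.90 and 7.96 at 70 min. Ccn1, a matricellular immediate early protein, read 10.72, 10.71 and 10.77 against 9.47, 9.60 and 9.52, and Dusp1, a MAP kinase phosphatase, 9.28, 9.31 and 9.28 against 8.04, 8.14 and 8.15. Palmd, Scd2, a fatty acid desaturase, Nupr1, a stress-induced chromatin protein, and Epyc, a small proteoglycan, fell by 1.07, 1.0, 1.0 and 0.97. The largest adjusted p of the 20 bright genes was 5.99e-05.

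Genes that build ribosomes were among the lists with the most calls. Of 45 measured ribosome biogenesis and Myc-network genes, 22 rose and 2 fell (53.3% called; median 0.28, beside 0.03 over all genes). The rises fell to 14 without control replicate 2 or 3 and to 12 without the 3 arrays of highest median, and were 25 given each array's median as a covariate and 28 after a further quantile normalization. The 38 biogenesis factors of the list gave 20 rises and 0 falls. Nolc1, a nucleolar chaperone, read 7.68, 7.65 and 7.66 in control and 8.47, 8.50 and 8.47 at 70 min. Wdr43, of the small-subunit processome, rose by 0.62, Nop56, a box C/D ribonucleoprotein, by 0.61 (0.22 at its other probe), Tcof1, which promotes ribosomal DNA transcription, by 0.55, and Fbl, the rRNA methyltransferase fibrillarin, by 0.51. Myc, the factor known to drive this programme, went the other way, from 8.37, 8.33 and 8.15 to 7.72, 7.33 and 7.47 (1.72-fold lower, limma adjusted p = 0.000443). Its groups did not overlap, and the call held with each array left out.

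Translation factors and tRNA synthetases rose in 16 of 37 and fell in 2 (48.6% called; median 0.20), 14 rising without the 3 arrays of highest median, and no fall was left in any fit without a control array or without 70 min replicate 2 or 3. Eif4e, the cap-binding factor, read 8.46, 8.29 and 8.40 in control and 8.99, 8.88 and 8.83 at 70 min. Eif3b, of the scaffold that loads the small subunit, rose by 0.54, Eif2s1, the alpha subunit of eIF2, by 0.46 and the helicase Eif4a1 by 0.39. Of 19 synthetases 6 rose, by at most 0.36 (Nars1).

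Polyamine, one-carbon and nucleotide genes rose in 16 of 30 with 0 falls (median 0.29; 11 rises without the 3 arrays of highest median, and 1 fall without control replicate 2). Odc1, ornithine decarboxylase, the first enzyme of polyamine synthesis, read 9.14, 9.09 and 9.22 in control and 9.81, 9.83 and 9.87 at 70 min. Sat1, which acetylates polyamines for export, rose by 0.76, Azin1, an antizyme inhibitor, by 0.57, and Srm and Amd1, which make spermidine and its aminopropyl donor, by 0.54 and 0.52. In the folate branch Shmt1 rose by 0.66 and Mthfd1l by 0.65, and in purine synthesis Ppat, its committed enzyme, rose by 0.62. Amino acid transporters rose in 8 of 31 and fell in 4 (38.7% called). The falls were 1 without control replicate 3 or 70 min replicate 2 or 3, and 2 without control replicate 1 or 2. The polyamine list had 53.3% called. Over all genes the share was 14.6%, and among those at or above the median level 25.2%. Slc7a8, a carrier of large neutral amino acids, rose by 0.79, Slc38a1, a glutamine carrier, by 0.70, Slc7a1, for arginine and lysine, by 0.67, and Slc7a5, of the leucine exchanger, by 0.38.

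**Figure D4:**
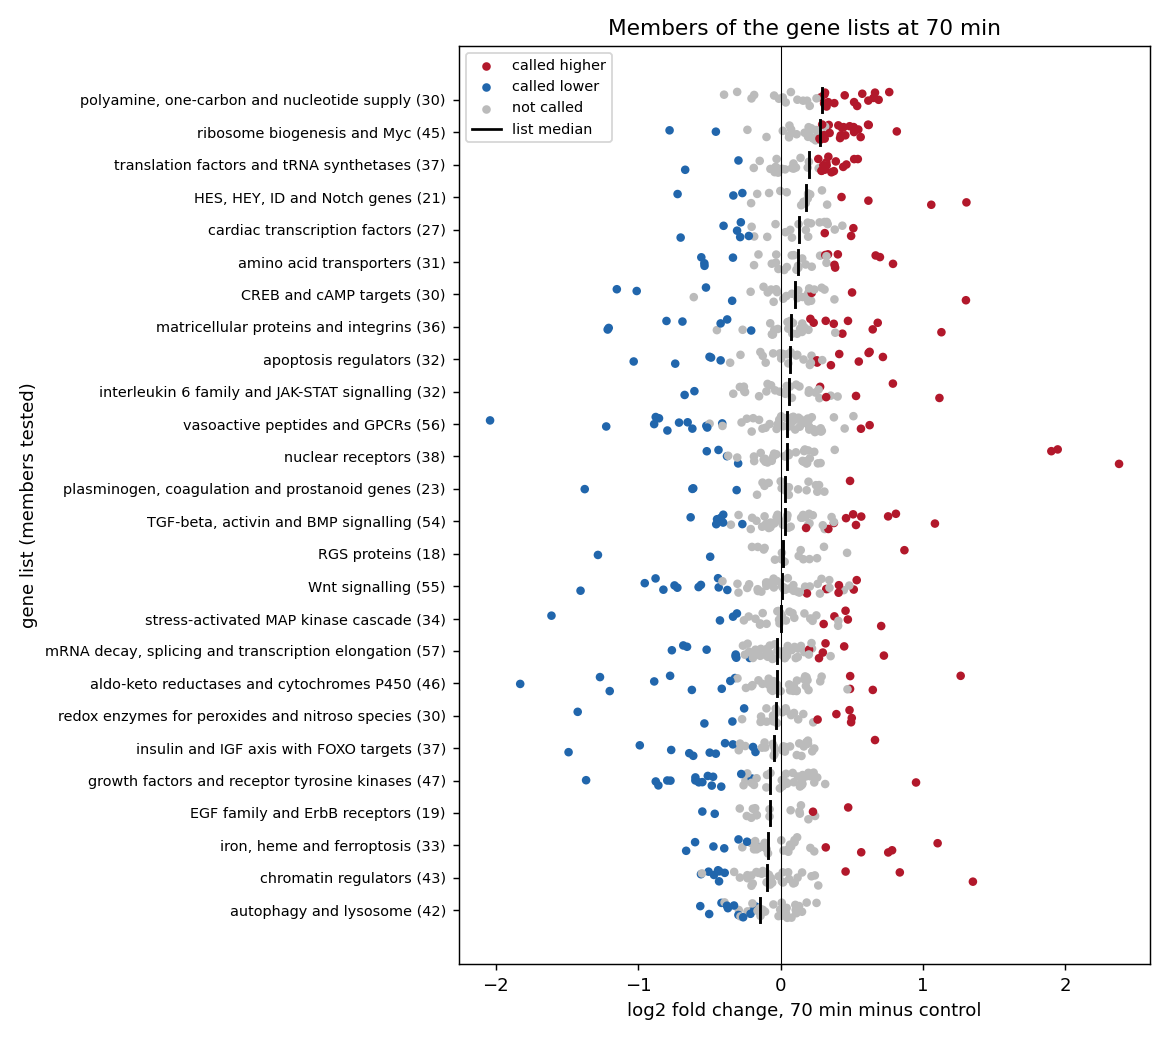
Log2 fold change at 70 min against control (x axis) of every measured member of the gene lists described here (y axis, with the number tested), red where called higher, blue where called lower and grey where not called; black ticks are list medians. The 3 lists with the highest medians are those of polyamine and nucleotide supply, ribosome biogenesis and translation, and the lowest median is that of autophagy and lysosome genes.

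Autophagy and lysosome genes fell in 11 of 42 and rose in 0 (26.2% called; median -0.14), where over all genes 7.81% fell and 6.76% rose. Among genes at or above the median level 25.2% were called, counting both directions. The count depended on single arrays, at 5 without 70 min replicate 2, 6 without replicate 3 or control replicate 1 or 3, 7 without control replicate 2 and 1 without the 3 arrays of highest median. Calls that held with each array left out were those of Pink1, a kinase that marks damaged mitochondria (7.75, 7.61 and 7.77 against 7.22, 7.26 and 7.15), Ulk2, an initiating kinase (-0.41), Hexa (-0.37) and Ctsb (-0.18), lysosomal hydrolases.

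Genes for secreted growth factors and their tyrosine kinase receptors fell more often than they rose. Of 47 measured, 15 fell and 1 rose (34.0% called), 9 falling without control replicate 1 and 8 without the 3 arrays of highest median. Among the ligands Angpt2, an antagonist of the receptor TIE2, read 7.71, 7.83 and 7.75 in control and 6.53, 6.22 and 6.45 at 70 min. Pgf, Vegfd and Vegfc, of the vascular endothelial growth factor family, fell by 0.48, 0.47 and 0.42. Of receptors, Tek, which encodes TIE2, fell by 0.88, Fgfr3 by 0.86, Met, the receptor of hepatocyte growth factor, by 0.79 and Ntrk3 by 0.77. The 1 riser was Flt1, a receptor and trap for vascular endothelial growth factor, from 5.98, 5.85 and 6.05 to 7.12, 6.83 and 6.78. Tek and Flt1 are endothelial genes, and the other measured endothelial markers, Cdh5, Tie1, Vwf, Emcn and Esam, were between 3.80 and 4.46 in control with none called. In the EGF family Hbegf and Nrg1, ligands of ErbB receptors, fell by 0.55 and 0.46. The list's 2 rises, of Areg and Errfi1, were lost without any 1 control array or 70 min replicate 3, and 1 remained without replicate 1 or 2. Of the 19 measured genes of that list 21.1% were called, below the 25.2% of genes at or above the median level.

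Several receptors for vasoactive mediators fell, as did endothelin, but the list as a whole was not shifted down (median 0.05, beside 0.03 over all genes). Of its 40 receptors 9 fell and 2 rose, with a median of 0.07. Of 56 measured peptides, processing enzymes and G protein-coupled receptors, 12 fell and 2 rose (25% called). Over all genes 14.6% were called, and 25.2% of those at or above the median level. The falls were 10 without control replicate 1 or 3 or 70 min replicate 3, and fewer still without the 3 arrays of highest median. Agtr1a, the main angiotensin II receptor, read 7.70, 7.64 and 7.81 in control and 7.12, 6.58 and 6.79 at 70 min. P2ry6, a receptor of uridine diphosphate, fell by 0.88, the lysophosphatidic acid receptors Lpar6 and Lpar1 by 0.85 and 0.79, S1pr1, for sphingosine-1-phosphate, by 0.71, and Ptgfr and Tbxa2r, for prostaglandin F2-alpha and thromboxane, by 0.65 and 0.62. F2r, the thrombin receptor, rose by 0.63. The rises were 1 without control replicate 3 and 4 without 70 min replicate 1. Ece1, which cleaves the endothelin precursor, was at 0.13 and not called. On the coagulation side Thbd, thrombomodulin, which turns thrombin to an anticoagulant role, fell from 7.82, 7.66 and 7.81 to 6.67, 6.15 and 6.35, and Ptgs2, the inducible cyclooxygenase, fell by 0.62. That list had 4 falls and 1 rise of 23 (21.7% called, below the 25.2% of genes at or above the median level). Its rises were 3 with the array median as a covariate and 2 after a further quantile normalization. It had 2 falls without control replicate 1, and no rise was left without control replicate 1 or 2 or 70 min replicate 1.

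Wnt pathway genes changed in 17 of 55, with 11 falls and 6 rises (30.9% called). By role, ligands and R-spondins gave 3 falls and 1 rise of 18, receptors 5 falls and 4 rises of 16, and inhibitors 2 falls and 0 rises of 16. Rspo3 and Rspo1, R-spondins that strengthen Wnt signalling, fell by 1.40 and 0.82, and Lgr4, an R-spondin receptor, from 9.43, 9.26 and 9.48 to 8.64, 8.33 and 8.34. The Frizzled receptors Fzd6, Fzd2 and Fzd4 fell by 0.88, 0.74 and 0.72, the ligand gene Wnt5a by 0.44 and the factor Tcf7l2 by 0.56. Ror2, a co-receptor for non-canonical Wnt ligands, rose by 0.54. Falls numbered 7 without the 3 arrays of highest median, and rises only 1 without control replicate 1, 2 without control replicate 2 or 70 min replicate 2, and 3 without 70 min replicate 3. Axin2, a common readout of the pathway, was at 0.34 (limma adjusted p = 0.0635).

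TGF-beta, activin and BMP genes divided, with 10 rises and 7 falls of 54 (31.5% called; 6 rises without control replicate 2). Tgfb3 read 10.49, 10.36 and 10.49 in control and 11.25, 11.26 and 11.27 at 70 min, and Tgfb1 rose by 0.37. Bmper, a secreted modulator of bone morphogenetic proteins, rose by 1.08, Smurf1, a ubiquitin ligase for SMADs, by 0.57 and Pmepa1, a feedback inhibitor, by 0.46. Falls included Grem1, a BMP antagonist (-0.63), Bmp1 (-0.45) and Bmp4 (-0.40). None of the 10 receptors was called. The ID genes, targets of BMP signalling that block basic helix-loop-helix factors, rose in 3 of 4, with Id1 from 6.89, 6.69 and 6.52 to 7.55, 7.91 and 7.82, Id2 by 1.31 and Id3 by 0.62. Of Notch genes, the ligand Jag1 fell from 11.46, 11.41 and 11.47 to 10.79, 10.66 and 10.73 while Hes1, a Notch target, rose by 0.43. That list gave 4 rises and 3 falls of 21 (33.3% called, beside 14.6% of all genes and 25.2% of those at or above the median level). The falls were 1 without control replicate 1 or 70 min replicate 3.

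Some kinase genes of one tier moved in opposite directions. Map2k6, a direct activator of p38, fell from 5.85, 5.60 and 5.94 to 4.14, 4.44 and 3.98, so that treated arrays were near the median of the unnamed probes, while Map2k3, the parallel p38 activator, rose by 0.47 and Map3k6 and the p38 effector Mapkapk2 by 0.71 and 0.46. In all 5 of 34 cascade genes rose and 4 fell, the falls being 2 without control replicate 3 or 70 min replicate 3. The share called was 26.5%, beside 14.6% of all genes and 25.2% of those at or above the median level. Of RGS proteins, Rgs4 fell by 1.28 and Rgs2 rose by 0.87. In that list, with 16.7% called, 1 of 18 rose (2 without 70 min replicate 1 or 3) and 2 fell (1 without control replicate 1 or 3 or any 70 min array). Among CREB and cyclic AMP genes 3 of 30 rose and 4 fell (23.3% called), with 1 rise, that of Sik1, without control replicate 1 or 2 or 70 min replicate 3. Rises were 6 with each array's median as a covariate and 5 after a further quantile normalization. Pkib, an inhibitor of protein kinase A, fell by 1.15 (-0.23 at its other, dim probe) and the phosphodiesterases Pde3b and Pde1c by 1.01 and 0.52. The call of Pkib was lost with a robust prior (limma adjusted p = 0.0578). Nuclear receptors outside the NR4A group had no called riser, and the falls of Nr2c1 and Thra, an orphan and the thyroid hormone receptor, were 0.44 and 0.52. The 4 falls of that list, which had 18.4% called, were 2 without control replicate 1 or 70 min replicate 3. The shares of the RGS, CREB and nuclear receptor lists lay below the 25.2% of genes at or above the median level.

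Among adhesion genes, integrins gave 7 rises and 3 falls of 18 and matricellular proteins 2 rises and 4 falls of 18. Of 36 matricellular and integrin genes 9 rose and 7 fell (44.4% called), with 5 rises without control replicate 2. Itga3 led with 7.74, 7.59 and 7.70 against 8.74, 8.81 and 8.88, followed by Itgb5 (0.68), Itga6 (0.47) and Itgb1, the common beta chain (0.23), while Itga9 and Itga11 fell by 0.80 and 0.42. Hmcn1, a giant matrix protein of the hemicentin kind, fell by 1.21, Ccn5 by 0.37 and Ccn2 by 0.21, and Ccn3 rose by 0.65.

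Redox and detoxifying genes moved in either direction. Of 30 enzymes that handle peroxides and nitroso species 5 rose and 4 fell (30.0% called). Srxn1, which repairs overoxidised peroxiredoxins, read 6.24, 6.50 and 6.25 in control and 6.73, 6.91 and 6.84 at 70 min, and Msrb3, a methionine sulfoxide reductase, Txnrd1, thioredoxin reductase, and Gss, glutathione synthetase, rose by 0.50, 0.48 and 0.39. Beside Nox4, Glrx, a glutaredoxin, and Cat, catalase, fell by 0.53 and 0.34. Among aldo-keto reductases and cytochromes P450 9 of 46 fell and 4 rose (28.3% called). The falls were 7 without control replicate 1 or 70 min replicate 2 or 3, and fewer still without the 3 arrays of highest median. Akr1c14 and Akr1c15, steroid and aldehyde reductases of closely related sequence that can share probe signal, fell by 1.83 and 1.27 and Akr1e2 by 1.20, and Cyp1b1 rose from 7.45, 7.47 and 7.58 to 8.81, 8.72 and 8.76 and Cyp1a1 by 0.65. At 70 min Akr1c14 read 4.23, 4.13 and 3.92, below the median of the unnamed probes, so the size of its fall is not well measured, and the same holds for Map2k6 and Pde1c, and for the rise of Socs2, whose control mean lay below it. Of iron and heme genes 5 of 33 rose and 7 fell (36.4% called), the falls being 4 without control replicate 2 and 3 without control replicate 3 or 70 min replicate 2. Tfrc, which imports iron, rose from 6.71, 6.45 and 6.73 to 7.68, 7.06 and 7.41, and Slc40a1, ferroportin, which exports it, fell from 7.29, 6.89 and 7.47 to 6.77, 6.41 and 6.47. Flvcr2, a membrane transporter gene, rose by 0.78.

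Survival genes changed in 13 of 32, with 8 rises and 5 falls (40.6% called; 5 rises without 70 min replicate 3). Bcl2l11, which encodes the pro-apoptotic protein BIM, fell from 6.98, 6.97 and 7.16 to 6.36, 5.50 and 6.16, and Xiap, an inhibitor of caspases, fell by 0.74. The pro-apoptotic Bmf and Bok rose by 0.55 and 0.63, the death receptor gene Tnfrsf10b by 0.72 and Tnfrsf12a, the receptor of the cytokine TWEAK, by 0.62. In the insulin and FOXO list 11 of 37 fell and 1 rose (32.4% called). Falls beside Sesn3 were Ccng2, a cyclin of cell cycle arrest (7.90, 7.76 and 7.87 against 7.24, 6.69 and 6.64), Pik3ip1, an inhibitor of phosphoinositide 3-kinase (-0.77), the repressor Bcl6 (-0.64) and Txnip, an inhibitor of thioredoxin (-0.45). The riser was Igf1r, the receptor of insulin-like growth factor (0.66), and Fbxo32, an atrophy ubiquitin ligase and FOXO target, was at -0.13 and not called. Sesn3, Ccng2, Pik3ip1, Bcl6 and Txnip kept their calls with each array left out.

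In the interleukin 6 and JAK-STAT list 5 of 32 rose and 2 fell (21.9% called; 3 rises without control replicate 2), with Socs2, a feedback inhibitor, up by 1.12 and Osmr, the oncostatin M receptor, from 7.68, 7.42 and 7.65 to 8.50, 8.24 and 8.37, while Il6 fell by 0.60. Of 27 cardiac transcription factors 3 rose and 6 fell (33.3% called), but 3 of the 9 calls held with each array left out, those of Mef2c (0.51), Tbx18 (-0.70) and Zfpm2 (-0.40). The rises of that list were 1 without control replicate 1 or 2 or 70 min replicate 3 5 without 70 min replicate 1, 6 after a further quantile normalization and 0 without the 3 arrays of highest median, and the falls were 3 without any 1 control array or 70 min replicate 3. Chromatin regulators fell in 7 of 43 and rose in 3 (23.3% called; 1 fall without the 3 arrays of highest median). Uhrf1 and Dnmt1, which copy DNA methylation at replication, rose by 0.84 and 0.46, and the histone demethylase gene Kdm4a fell by 0.56. Among RNA processing genes 6 of 57 rose and 8 fell (24.6% called; 3 rises without control replicate 2 and 5 falls without 70 min replicate 2). The shares of the interleukin 6, chromatin and RNA processing lists lay below the 25.2% called among genes at or above the median level. Over all genes 14.6% were called. Srsf2, a splicing factor, rose by 0.73, and Zfp36, which destabilises mRNAs with AU-rich elements, fell from 7.66, 7.71 and 7.75 to 7.15, 7.03 and 6.96.

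Among the genes given above as changed, these were not called without the 3 arrays of highest median, when 1 treated array remained: Myc, Nr2c1, Thra, Mef2c, Pkib, Ptgfr, Areg, Errfi1, Pgf, Tgfb1, Bmp1, Wnt5a, Il6, Ccn2, Ccn5, Itgb1, Slc7a5, Shmt1, Fbl, Ulk2, Ctsb, Hexa, Slc40a1, Flvcr2, Cyp1a1, Bmf, Xiap, Map2k3, Glrx, Srxn1 and Gss. In the same setting the rises were 0 rather than 2 for the EGF family, 2 rather than 1 for receptor tyrosine kinase genes, 4 rather than 10 for TGF-beta and BMP genes, 1 rather than 6 for Wnt genes, 3 rather than 5 for interleukin 6 genes, 2 rather than 1 for coagulation genes, 4 rather than 9 for adhesion genes, 4 rather than 8 for amino acid transporters, 2 rather than 6 for RNA processing genes, 2 rather than 4 for aldo-keto reductase and P450 genes, 3 rather than 8 for apoptosis regulators, 2 rather than 5 for the MAP kinase cascade and 2 rather than 5 for redox enzymes. The falls were 0 rather than 4 for nuclear receptors, 2 rather than 6 for cardiac factors, 1 rather than 3 for Notch and ID genes, 2 rather than 4 for CREB genes, 1 rather than 2 for RGS proteins, 3 rather than 7 for TGF-beta and BMP genes, 5 rather than 11 for insulin and FOXO genes, 0 rather than 2 for interleukin 6 genes, 2 rather than 4 for coagulation genes, 4 rather than 7 for adhesion genes, 1 rather than 4 for amino acid transporters, 0 rather than 2 for the ribosome biogenesis list, 0 rather than 2 for translation factors, 2 rather than 8 for RNA processing genes, 1 rather than 7 for iron and heme genes, 1 rather than 5 for apoptosis regulators, 2 rather than 4 for the MAP kinase cascade and 2 rather than 4 for redox enzymes. With the array median as a covariate and after a further quantile normalization, in that order, falls of Notch and ID genes were 1 and 3 against 3, rises of RGS proteins were 2 and 2 against 1, falls of RGS proteins were 1 and 2 against 2, rises of the EGF family were 1 and 2 against 2, rises of receptor tyrosine kinase genes were 3 and 3 against 1, rises of insulin and FOXO genes were 2 and 2 against 1, falls of coagulation genes were 2 and 5 against 4, falls of amino acid transporters were 2 and 4 against 4, falls of translation factors were 0 and 2 against 2 and falls of autophagy and lysosome genes were 7 and 13 against 11.

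The changes were then set beside the later arrays, which share the controls, so that each time's own values are given. The differences between times were tested directly, and these tests share the 70 min arrays that chose the genes. Between 4 h and 70 min limma called 1386 genes, 7.63% of those tested, and between 8 h and 70 min 2904, or 16%. By direction the first were 4.48% higher and 3.15% lower at 4 h, and the second 9.56% higher and 6.43% lower at 8 h. All 30 leading genes differed between 8 h and 70 min, and 28 differed between 4 h and 70 min, the exceptions being Id2 and Dtl. The 15 leading risers had log2 fold changes of 1.13 to 2.38 at 70 min, -0.41 to 0.94 at 4 h and -1.0 to 0.21 at 8 h. The 15 leading fallers fell by 1.42 to 2.55 at 70 min and stood between -1.20 and -0.02 at 4 h and between -0.56 and 0.41 at 8 h.

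Single genes differed in how they left the 70 min value. Nr4a1 was at 2.38 at 70 min, -0.29 at 4 h and 0.02 at 8 h, and Hk2, a hexokinase, at 1.16, -0.09 and 0.17. Olr1 went from 1.81 at 70 min to -0.41 at 4 h and -1.0 at 8 h. It was called lower than control at both later times, narrowly at 4 h (limma adjusted p = 0.0499 and 0.000551). Id2 (1.31, then 0.94 and 0.00) and Mybl2 (1.35, then 0.90 and 0.09) were still high at 4 h. Of falling genes, Rgs4 read -1.28, -1.26 and -0.27 and Edn1 -2.04, -1.20 and -0.21. Bcl2l11 turned from -1.03 at 70 min to 0.81 at 4 h and 0.16 at 8 h, and Lgr4 from -0.95 to 0.54 and 0.06, each with a difference between 4 h and 70 min that passed (limma adjusted p = 8.94e-07 and 2.64e-08). Of the 47 genes named by size 25 were called against control at 4 h and 2 at 8 h, Olr1 and Hmox1 (at 1.10, 0.52 and 0.64).

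**Figure D5:**
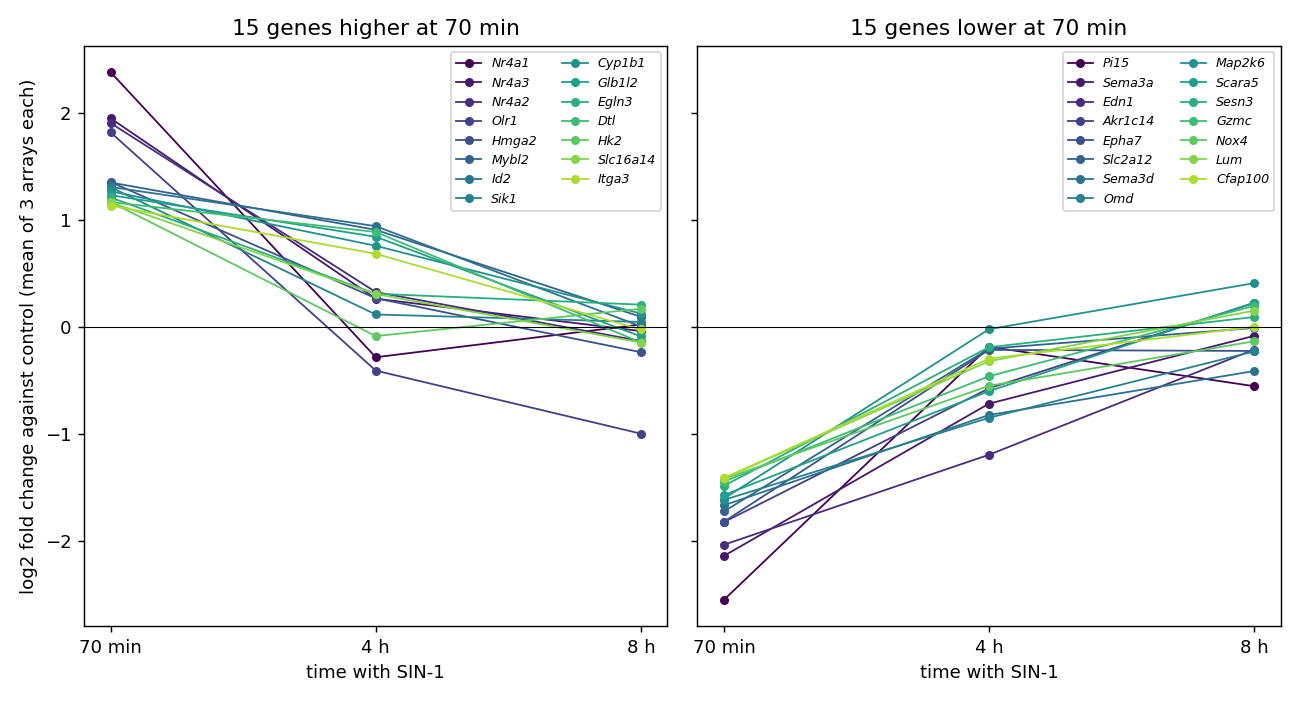
Log2 fold change against control (y axis) at 70 min, 4 h and 8 h of SIN-1 (x axis, evenly spaced and not to scale in time) for the 15 genes named as higher (left) and the 15 named as lower (right) at 70 min; points are differences of group means over 3 arrays each, from the same controls. Most lines approach 0 by 8 h, and Olr1 ends at -1.0.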

How the data were processed

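Total RNA of the 12 samples was amplified, labelled with biotin and measured on one-colour whole-transcript arrays. The authors deposited log2 values that, per the submitters' processing notes, came from RMA and the Affymetrix software Expression Console, version 1.3.1.187. The log2 scale was inferred from the values (1.19 to 13.63). RMA equalises arrays and compresses small folds near background. Of 36685 probes, 18511 had 1 symbol, 575 had several and 17599 were unlisted. For the 291 genes with several probes the brightest was kept, which left 18166 genes. Groups came from the labels.

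limma 3.58.1 (R 4.3.3) fitted group means over the 12 arrays (eBayes with trend, 8 residual degrees of freedom, two-sided), with Benjamini-Hochberg adjustment over all genes in each of 3 comparisons. Errors are SEs of that model where marked. Median SE was 0.13, a precision set by 3 arrays per group. The script was tested on simulated data.

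The 27 gene lists (985 genes measured, 1 list not reported here), the markers and the naming rule were chosen with earlier results of these data known. Named by rule were the 15 higher and 15 lower genes of largest change and the 10 and 10 among the 1817 brightest, all called, with groups apart and a mean in the higher group of at least 5.75, passing over small RNAs, chemosensory receptors and loci without a name. Called members of lists could be named too; among them those whose calls held with each array left out were preferred to the 4 of largest change that the rule asked for, a choice made after their values were seen. Always named were Hmox1, Nr4a1, Edn1, Egr1 and Myc. Uncalled members are given as contrasts. Actb, fixed too, was at 0.05 ± 0.04 (SE) and not called, and Gapdh was not analysed here. Alternatives were those of the closing section. Promoters are from RefSeq, GRCr8, 13757 of the tested genes matching. Figures were drawn with matplotlib 3.10.9.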

Additional observations from a re-analysis of the deposited data

Results flagged for a closer look

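The effect of SIN-1 at 70 min differed from that at 4 h for 1386 genes and from that at 8 h for 2904 genes by limma, tested as the difference between the treated times since the controls are shared. Among genes named by size the difference of 4 h from 70 min was tested for each, on the log2 scale. The orphan receptors were lower at 4 h than at 70 min, Nr4a1 by a difference of -2.66, Nr4a3 of -1.68 and Nr4a2 of -1.58. Olr1 differed by -2.23, Hmga2 by -1.09, Sik1 by -1.19, Hk2 by -1.25, Egln3 by -0.90 and Slc16a14 by -0.86. Smaller differences were those of Cyp1b1 (-0.51), Itga3 (-0.45), Mybl2 (-0.44) and Glb1l2 (-0.39).

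Genes that fell at 70 min were higher at 4 h, Pi15 by 2.37, Epha7 by 1.61, Map2k6 by 1.58, Slc2a12 by 1.52, Sema3a by 1.42, Sesn3 by 1.3 and Akr1c14 by 1.25. Cfap100 was higher by 1.12, Lum by 1.09, Gzmc by 0.98, Scara5 by 0.97, Nox4 by 0.87, Edn1 by 0.84, Sema3d by 0.84 and Omd by 0.77. Among bright genes that rose at 70 min the differences were -0.99 for Rai14, -0.91 for Olfml2b, -0.84 for Myo10, -0.79 for Hip1, -0.67 for Rgs2, -0.63 for Akap12, -0.59 for Hmox1, -0.39 for Vcl and -0.33 for Adam12. Among bright genes that fell they were 0.66 for Palmd, 0.66 for Scd2, 0.64 for Ccn1, 0.56 for Epyc, 0.51 for Nupr1, 0.43 for Npr3 and 0.40 for Dusp1.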

How the results depend on the processing

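The 47 genes named by size kept direction and call under all 18 alternatives that bear on 70 min against control, and of 343 called genes named by any rule 168 did so, while 175 lost the call under at least 1 and none reversed. Counts of calls were 1462 (687 higher, 775 lower) at an adjusted p under 0.01 for 70 min against control, 719 (415, 304) for 4 h against 70 min and 1689 (1041, 648) for 8 h against 70 min, a stricter threshold by construction. Without the 3 arrays of highest median, which takes the lone 70 min array to vary like the other groups, they were 1046 (600, 446), 318 (159, 159) and 1181 (586, 595). Given the median of each array as a covariate, 504 genes were higher at 4 h than at 70 min, while 1929 differed at 8 h, 922 of them higher, and the share higher of 70 min calls was 55.6%, against 50% after a further quantile normalization. With the compared groups alone 763 genes (419, 344) differed between 4 h and 70 min, and with array weights 1790 were lower at 8 h; the cause was not tested. Leaving out each array in turn gave 1751 to 3106 calls at 70 min (838 to 1374 higher, 895 to 1732 lower), 885 to 1799 between 4 h and 70 min (489 to 1168 and 396 to 631) and 2003 to 3386 between 8 h and 70 min (1183 to 2007 and 789 to 1379). Same-numbered control and 70 min arrays deviated together with correlations of -0.04 to 0.19, so the numbers were not taken as pairs. With the replicate number as a block 2640 genes were called at 70 min, 1357 between 4 h and 70 min and 2889 between 8 h and 70 min, 2505 of the first being calls without the block. The median SE was 0.15 in the dimmest of 4 level classes, where 1.23% were called higher.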
